A study of Mus musculus with 9 samples.

Results

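The endothelin system was described here through its 7 genes: the ligand genes Edn1, Edn2 and Edn3, the receptor genes Ednra and Ednrb, and the converting enzyme genes Ece1 and Ece2. Its members were the probe sets (groups of short oligonucleotides that measure 1 transcript) whose single annotated gene symbol was one of these names. They came to 14 probe sets for 6 genes, of 45037 probe sets in all. No probe set carried the symbol Ednra in the annotation used, so Ednra was not analysed here. The arrays measured whole right lung of 3 mouse strains, BL6 (also labelled C57/BL6), FVB/N and SV129. The hypoxic groups had lived for 4 weeks at 50 kPa (hypobaric hypoxia, 2 arrays per strain) and the normoxic groups for 4 weeks at 85 kPa, the pressure at Denver's altitude (1 array per strain). The normoxic animals therefore also lived below sea-level pressure, and the labels give no age, sex or genetic change. Nothing in the labels says whether each array is a different animal or a pool, so the p-values reflect array-to-array spread alone, which may be technical. With 1 normoxic array in each strain, its spread was taken to equal that of the hypoxic arrays.

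Endothelins are short peptides that act on blood vessels. Each is made as a long precursor, trimmed by furin-type proteases to an inactive big endothelin and then cut by an endothelin-converting enzyme to the active peptide. In lung, endothelin-1 comes mainly from endothelium. The ETA receptor (Ednra) on smooth muscle contracts vessels, while the ETB receptor (Ednrb) on endothelium releases nitric oxide and prostacyclin and clears endothelin-1 from the circulation. Blockers of these receptors are used to treat pulmonary arterial hypertension. In mouse lung, Ednrb is also a known marker of aerocytes, the thin capillary endothelial cells of gas exchange.

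The promoter of Edn1 is shown because Edn1 is a textbook target of hypoxia-inducible factors, and that of Edn3 because Edn3 separated the strains in these data. Both are RefSeq sequences of build GRCm38.p6, which is a C57BL/6J genome, and run 5′ to 3′ from 250 bases before to 50 bases after the annotated start. Capitals mark matches, on either strand, to the hypoxia response core ACGTG, the GATA motif AGATAA, the AP-1 motif TGACTNA and the cyclic AMP response motif TGACGT, which were searched without regard to overlaps between them.
Edn1, chr13:42301226-42301525, plus strand: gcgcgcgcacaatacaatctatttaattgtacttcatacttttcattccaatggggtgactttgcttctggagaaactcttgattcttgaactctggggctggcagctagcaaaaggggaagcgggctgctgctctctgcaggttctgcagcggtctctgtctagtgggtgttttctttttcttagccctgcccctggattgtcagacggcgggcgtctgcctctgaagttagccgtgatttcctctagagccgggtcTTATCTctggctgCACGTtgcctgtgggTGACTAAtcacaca
Edn3, chr2:174760369-174760668, plus strand: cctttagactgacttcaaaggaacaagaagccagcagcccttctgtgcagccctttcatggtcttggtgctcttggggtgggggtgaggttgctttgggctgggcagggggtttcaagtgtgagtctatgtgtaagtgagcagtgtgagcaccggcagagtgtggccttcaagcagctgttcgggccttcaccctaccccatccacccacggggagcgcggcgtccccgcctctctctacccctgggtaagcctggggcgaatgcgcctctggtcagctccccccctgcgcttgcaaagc
The Edn1 window held 1 GATA match at bases 259 to 264, 1 hypoxia response core at bases 272 to 276 and 1 AP-1 match at bases 287 to 293, all after the annotated start. Whether Edn1 transcripts of lung begin at this start was not analysed here, so the matches need not lie in transcribed sequence. The Edn3 window held 0 matches to these letters. Of all 32851 promoter windows of this length, 19.6% held the hypoxia response core, 11.2% the GATA motif, 13.9% the AP-1 motif and 7.51% the cyclic AMP motif. Ece1 had 4 annotated starts, and the third, at 137913558 on chromosome 4, held 2 overlapping hypoxia response cores that read the same bases on both strands. The Ece2 window held 1 hypoxia response core, the Ednrb window 1 cyclic AMP motif, and the windows of Edn2, Ednra and the other Ece1 starts held none. A match is a description of letters only, and the sequences of the FVB/N and SV129 strains were not used here.

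Values below are log2 levels, log2(signal + 16) after quantile normalization, and changes are differences of such levels. Of the 14 member probe sets, 12 of 5 genes were bright enough to be tested among 27022 probe sets. The probe set of Edn2 and the dimmer of the pair for Ece2 fell in the dimmest 40%. Lung epithelial markers were high on all arrays (mean level of 9 genes 13.93 to 14.30), as the labels imply. Their summed signal was 191515 to 233416 on hypoxic arrays and 142201 to 154588 on normoxic arrays, while their mean levels overlapped. Heart muscle markers, 8 measured, had mean levels of 9.58 to 11.15 on hypoxic arrays and 10.30 to 11.64 on normoxic arrays. The part of these tissues in the member values was not tested. The mean level of 18 kidney markers was 11.27 for hypoxic BL6 array 2 and 12.29 for the FVB/N normoxic array, and 5.83 to 6.31 for the other 7, called the kidney-free arrays below. The FVB/N normoxic array also stood apart in 9 brown fat and skeletal muscle markers, with a mean level of 9.21 where the other 8 arrays had 5.92 to 6.77. Calls of members and of named pathway genes are therefore also given over the 7 kidney-free arrays where the comparison can be made on them. None of these is a normoxic FVB/N array. The hypoxia change on them rests on BL6 and SV129 alone, and FVB/N enters the strain comparisons by its hypoxic arrays only.

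**Figure D1:**
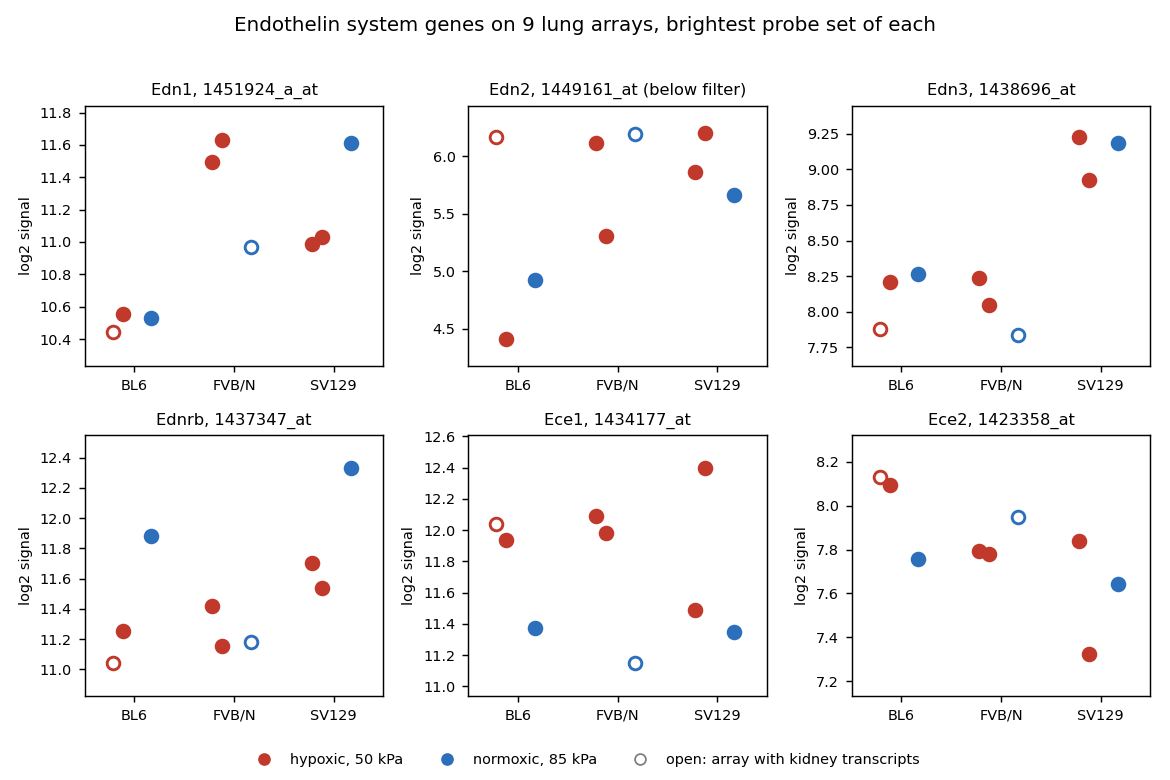
Log2 signal (y axis) of the brightest probe set of each of 6 endothelin system genes on 9 arrays, by strain (x axis) and pressure, with each point 1 array and open points the 2 arrays with kidney transcripts. Edn1 was lowest on all 3 BL6 arrays, Edn3 was highest on all 3 SV129 arrays, and the 6 hypoxic arrays lay above the 3 normoxic ones for Ece1.

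The first question was whether 4 weeks of hypoxia changed the system over the 3 strains together. No member probe set passed the threshold of a Benjamini-Hochberg adjusted p below 0.05 in limma: 0 of 12 were called, while 5 of 12 had an unadjusted p below 0.05. Over all probe sets tested 3.76% were called in this comparison and 22.2% had an unadjusted p below 0.05. The median change of the 12 was 0.02, against 0.04 over all probe sets, and 6 of the 12 lay above 0. Among the 12 tested, probe sets of 1 gene differed in sign for Edn3, Ednrb and Ece1, as the plot of hypoxia changes by probe set shows.

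**Figure D2:**
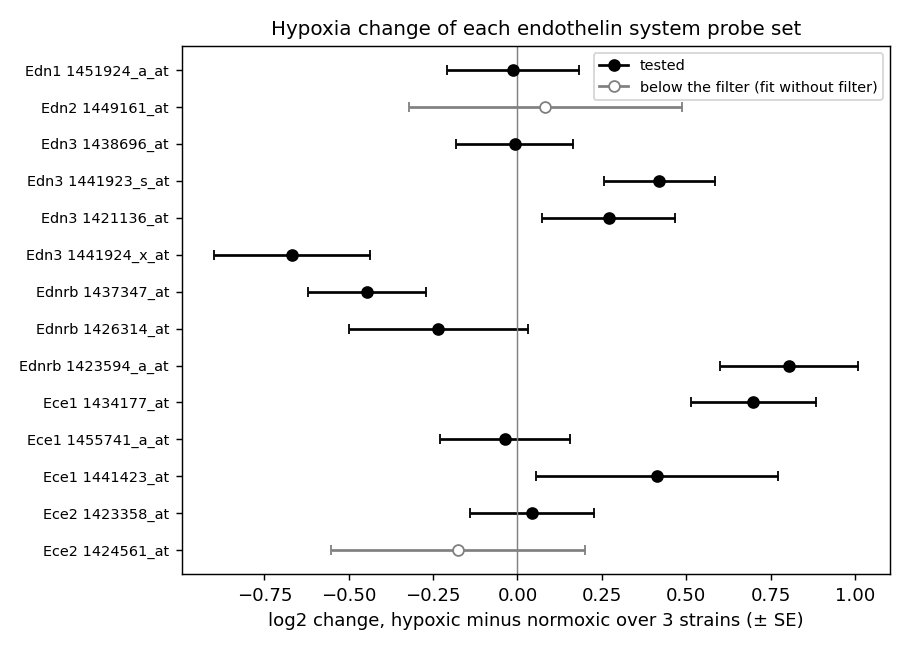
Log2 change (x axis, hypoxic minus normoxic over the 3 strains, bars ± SE) of each of the 14 probe sets, with the 2 below the filter drawn open. Changes ran from −0.67 to 0.80, and probe sets of Edn3, Ednrb, Ece1 and Ece2 lay on both sides of 0, that of Ece2 below 0 being under the filter.

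Edn1 encodes the precursor of endothelin-1, the main vasoconstrictor of the family. Its 1 probe set (1451924_a_at) stood at 10.44 and 10.56 in hypoxic BL6 lungs against 10.53 in the normoxic BL6 lung. It stood at 11.50 and 11.63 in hypoxic FVB/N lungs against 10.97 in the normoxic FVB/N lung, and at 10.99 and 11.03 in hypoxic SV129 lungs against 11.61 in the normoxic SV129 lung. Hypoxic arrays were thus above the normoxic one in FVB/N, below it in SV129 and on both sides of it in BL6. The mean over the 6 hypoxic arrays was 11.02 ± 0.48 and over the 3 normoxic arrays 11.04 ± 0.55 (SD), a change of −0.01 ± 0.196 (SE, limma adjusted p = 0.976). The change was −0.33 ± 0.180 over the 7 kidney-free arrays (adjusted p = 0.425).

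Within the strains the Edn1 change was 0.60 ± 0.194 in FVB/N (limma adjusted p = 0.106), −0.60 ± 0.194 in SV129 (adjusted p = 0.541) and −0.03 ± 0.194 in BL6 (adjusted p = 0.968). The test of the difference between strains gave Edn1 an unadjusted limma p of 0.00868 and an adjusted p of 0.243, so the difference did not pass, and 0% of all probe sets passed it. The FVB/N change rests on the normoxic FVB/N array with its kidney transcripts, and no FVB/N change can be had without it. The mean level of the endothelial markers, 13 of 13 measured, was also lowest there, at 11.90 where the other 8 arrays had 12.25 to 12.87. The summed signal of these 13 markers ran from 77300 to 120127 on hypoxic arrays and from 60150.5 to 84425 on normoxic arrays, none of them at 0, and their part in the Edn1 difference was not tested. In whole lung, fewer cells of a type and less RNA per cell cannot be told apart.

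In order of group level, Edn1 was highest in the normoxic SV129 lung (11.61) and in hypoxic FVB/N lungs (11.56 ± 0.10, SD, n = 2), whose values overlapped. Hypoxic SV129 lungs (11.01 ± 0.03, n = 2) and the normoxic FVB/N lung (10.97) came next. The normoxic BL6 lung (10.53) and hypoxic BL6 lungs (10.50 ± 0.08, n = 2) were lowest and overlapped. All 3 BL6 arrays lay below the other 6 arrays, a pattern found for 2.63% of all probe sets.

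The difference in Edn1 between BL6 and FVB/N was −0.86 ± 0.226 (limma adjusted p = 0.111), and that between BL6 and SV129 was −0.70 ± 0.226 (adjusted p = 0.168). Neither passed with all 9 arrays. Without the normoxic FVB/N array both passed, at −1.15 (limma adjusted p = 0.00907) against FVB/N and −0.70 (adjusted p = 0.0312) against SV129. Each passed in this 1 of 9 fits that left out 1 array, with adjusted p up to 0.350 and 0.469 in the other 8, and the difference from SV129 was −0.41 without the normoxic SV129 array. The difference from FVB/N also passed over the 7 kidney-free arrays (−1.18 ± 0.214, adjusted p = 0.0446) and that from SV129 did not (−0.72 ± 0.180, adjusted p = 0.102). Among the 6 hypoxic arrays alone the difference from FVB/N was −1.06 (limma adjusted p = 0.024). Fits without the normoxic FVB/N array, the kidney-free ones included, hold FVB/N by its hypoxic arrays only. They correct these by the hypoxia change of BL6 and SV129, while the Edn1 change within FVB/N was 0.60. The normoxic lungs stood at 10.53 in BL6 and 10.97 in FVB/N.

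Edn2 encodes endothelin-2, also called vasoactive intestinal contractor in mouse. Its probe set was dim, with deposited signals of 4.69 to 58.4 on hypoxic arrays and 14.6 to 59.8 on normoxic arrays. The ranges overlapped, and the change in a fit without the filter was 0.08 ± 0.404 (limma adjusted p = 0.947). Most of these signals lie within a few times the added 16, so the log2 scale understates any change of Edn2.

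Edn3 encodes endothelin-3, which acts mainly through the ETB receptor and, in mouse, is needed for enteric neurons and melanocytes. It held 4 of the 6 strain calls made among the members. On its brightest probe set (1438696_at), hypoxic and normoxic levels together ran from 7.88 to 8.27 in BL6, from 7.84 to 8.24 in FVB/N and from 8.92 to 9.23 in SV129. The SV129 arrays did not overlap with the others, as held for 4.13% of all probe sets. The difference was −1.07 ± 0.201 for FVB/N against SV129, a level 2.10-fold lower in FVB/N (limma adjusted p = 0.0248), and −0.99 ± 0.201 for BL6 against SV129, 1.99-fold lower in BL6 (adjusted p = 0.0369). BL6 and FVB/N differed by 0.08 ± 0.201 on this probe set (limma adjusted p = 0.939).

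A second probe set of Edn3 (1441923_s_at) separated all 3 strains. It stood at 7.955 and 8.0005 in hypoxic BL6 lungs against 7.49 in the normoxic BL6 lung. In FVB/N it stood at 6.41 and 6.66 in hypoxic lungs against 6.04 in the normoxic lung, and in SV129 at 8.75 and 8.50 in hypoxic lungs against 8.34 in the normoxic lung. No 2 strains overlapped, and this order without overlap was found for 0.463% of all probe sets. Whether the probes match the sequences of the 3 strains equally well was not tested. FVB/N against SV129 gave −2.16 ± 0.190 (4.48-fold lower in FVB/N, limma adjusted p = 0.000573), and BL6 against FVB/N gave 1.45 ± 0.190 (2.73-fold higher in BL6, adjusted p = 0.00466). BL6 against SV129 gave −0.72 ± 0.190 and did not pass (adjusted p = 0.0972).

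These 2 differences of the second probe set passed in 9 of 9 fits that left out 1 array. The first still passed over the 7 kidney-free arrays (−2.14 ± 0.241, limma adjusted p = 0.0042), and the second did not (1.41 ± 0.276, adjusted p = 0.059). In a fit with the array number as a block the second did not pass either (1.55, limma adjusted p = 0.0547). The brightest probe set's difference between FVB/N and SV129 passed in 4 of 9 fits that left out 1 array. It failed without hypoxic BL6 array 5, hypoxic FVB/N array 6, hypoxic SV129 array 2, the normoxic FVB/N array or the normoxic SV129 array (adjusted p = 0.0602, 0.0889, 0.0909, 0.0598 and 0.14). That between BL6 and SV129 passed only without the normoxic FVB/N array, with an adjusted p of up to 0.166 in the other 8 fits. Over the 7 kidney-free arrays these were −0.94 (limma adjusted p = 0.0766) and −0.89 (adjusted p = 0.0834).

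**Figure D3:**
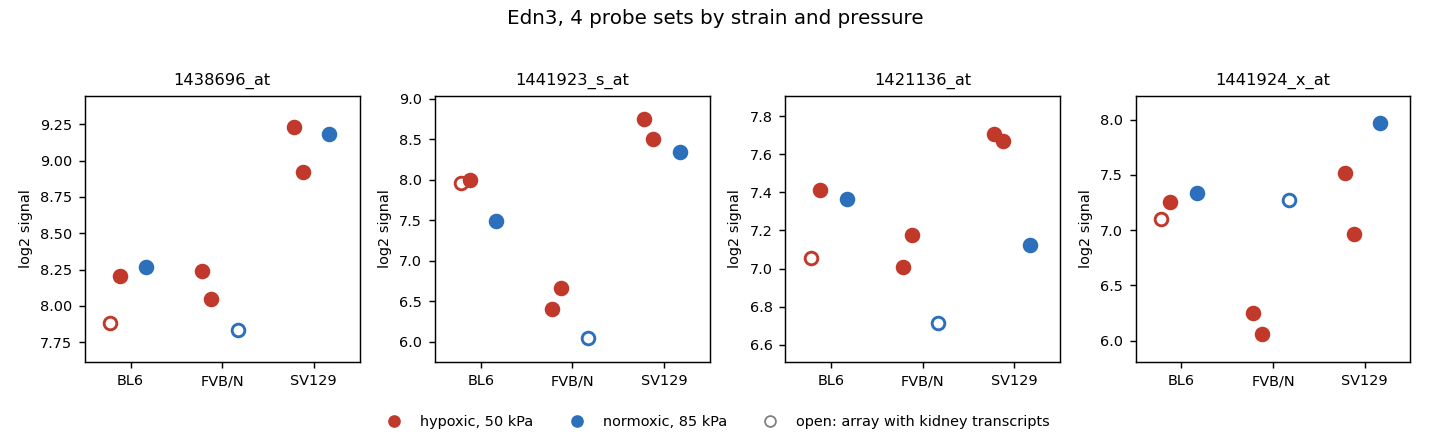
Log2 signal (y axis) of the 4 probe sets of Edn3 on 9 arrays by strain (x axis) and pressure, with each point 1 array and open points the 2 arrays with kidney transcripts. FVB/N lay lowest and SV129 highest by mean on all 4, without overlap between strains on 1441923_s_at.

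The other 2 probe sets of Edn3 gave the same order of strain means. With all 9 arrays their differences from SV129 were smaller than on the 2 probe sets above. BL6 against FVB/N was 0.31 on 1421136_at and 0.70 on 1441924_x_at (limma adjusted p = 0.690 and 0.312). These lay between 0.08 on the brightest and 1.45 on 1441923_s_at. FVB/N against SV129 was −0.53 ± 0.228 on 1421136_at (limma adjusted p = 0.289) and −0.96 ± 0.267 on 1441924_x_at (adjusted p = 0.107), and −0.52 and −1.20 over the 7 kidney-free arrays (adjusted p = 0.413 and 0.110). Endings of the form s_at and x_at are the array maker's marks for probe sets whose probes may also match other transcripts. With hypoxia the 4 probe sets pointed in different directions. Hypoxic minus normoxic was −0.01 ± 0.174 on the brightest and 0.42 ± 0.164 on 1441923_s_at, where 6 of 6 hypoxic arrays lay above the normoxic array of their strain (14.5% of all probe sets did so). It was −0.67 ± 0.231 on 1441924_x_at, where 6 of 6 lay below (8.77% of all probe sets), and none of these passed (limma adjusted p = 0.985, 0.176 and 0.136 in this order).

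Ednrb encodes the ETB receptor, and its 3 probe sets disagreed on hypoxia. On the brightest (1437347_at) levels were 11.04 and 11.25 in hypoxic BL6 lungs against 11.88 in the normoxic BL6 lung, and 11.70 and 11.54 in hypoxic SV129 lungs against 12.33 in the normoxic SV129 lung. In FVB/N they were 11.42 and 11.15 in hypoxic lungs against 11.18 in the normoxic lung with kidney transcripts. All 4 hypoxic arrays of BL6 and SV129 lay below their normoxic array, a pattern whose share among all probe sets was not counted. In FVB/N the hypoxic arrays lay on both sides of the normoxic one.

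Over the 3 strains the change of this probe set was −0.45 ± 0.175 (limma adjusted p = 0.178). Leaving out the normoxic FVB/N array made it −0.71 (adjusted p = 0.0275), 1 of 9 such fits to pass. Over the 7 kidney-free arrays it was −0.66 ± 0.150, a level 1.58-fold lower in hypoxic lung that did not pass (adjusted p = 0.0866). A fit with the mean level of kidney markers as an added term gave −0.56 and passed (limma adjusted p = 0.0306). The second probe set (1426314_at) had the same sign and did not pass, at −0.23 ± 0.265 (limma adjusted p = 0.645). Its value moved with single arrays, to −0.64 without the normoxic FVB/N array, −0.07 without hypoxic SV129 array 5, −0.12 without the normoxic BL6 array and 0.06 without the normoxic SV129 array. The 7 kidney-free arrays gave −0.68 ± 0.255 (adjusted p = 0.248).

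The third probe set of Ednrb (1423594_a_at) lay the other way. It stood at 9.25 and 9.21 in hypoxic BL6 lungs against 8.77 in the normoxic one, at 8.80 and 9.14 in hypoxic FVB/N lungs against 7.56 in the normoxic one, and at 9.38 and 9.12 in hypoxic SV129 lungs against 8.71 in the normoxic one. All 6 hypoxic arrays lay above all 3 normoxic arrays, as held for 6.53% of all probe sets. The change was 0.80 ± 0.205 (limma adjusted p = 0.0645), 0.90 with each array centred on its median (adjusted p = 0.0409), 0.71 with the kidney marker term (adjusted p = 0.0464) and 0.50 ± 0.208 over the 7 kidney-free arrays (adjusted p = 0.296). In FVB/N alone it was 1.41 ± 0.277, 2.66-fold higher in hypoxic lung (limma adjusted p = 0.0336), the 1 member probe set called within a strain. Of all probe sets 6.8% were called in FVB/N (2.95% higher in hypoxic lung), 0.0148% in BL6 and 0% in SV129, and the FVB/N value rests on the normoxic array with kidney transcripts. The ending a_at is the array maker's mark for probes shared by transcript variants of 1 gene. Across the 9 arrays this probe set and the brightest one had a Pearson r of 0.01, and the brightest and second had one of 0.59.

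Markers of aerocytes, for which Ednrb itself is known, did not move together with hypoxia. Of 8 tested 1 rose and 0 fell, with a median change of −0.13. Their summed signal was 31583 to 38722 on hypoxic arrays and 31554 to 41306 on normoxic arrays. The 41306 was that of the FVB/N normoxic array with kidney transcripts, whose mean level of these markers was 11.24. The BL6 and SV129 normoxic arrays had sums of 31554 and 33420, and mean levels of 11.45 and 11.49. Of 13 endothelial markers 1 rose and 0 fell, with a median change of 0.33. For hypoxia over the strains 3.76% of all probe sets were called, and 2.75% of genes read through their brightest probe set. The marker that rose was Emcn in both lists (1.43 ± 0.114, limma adjusted p = 0.00621), and it is named after its value was seen. The endothelial and aerocyte lists share Emcn and Kdr. Within FVB/N, where the third Ednrb probe set was called, 5 of 13 endothelial markers rose and 0 fell (median 1.02, with 12 above 0), against a median of 0.17 over all probe sets. Of all probe sets 6.8% were called in FVB/N, 2.95% of them all as higher in hypoxic lung. Aerocyte markers there had 1 of 8 higher and 1 lower (median 0.28), and smooth muscle markers had 3 of 10 higher and 0 lower (median 0.80, all 10 above 0). Over the 3 strains, of the 10 smooth muscle markers 0 were called, with 9 above 0 and a median of 0.35, and their mean level was 10.30 to 10.73 on 8 arrays and 9.56 on the FVB/N normoxic one. None of these markers was at 0, and their part in the receptor values was not tested.

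Ece1 encodes the main enzyme that turns big endothelin-1 into endothelin-1. Its brightest probe set (1434177_at) stood at 12.04 and 11.93 in hypoxic BL6 lungs against 11.37 in the normoxic one, and at 12.09 and 11.98 in hypoxic FVB/N lungs against 11.15 in the normoxic one. In SV129 it stood at 11.49 and 12.39 in hypoxic lungs against 11.34 in the normoxic lung. All hypoxic arrays lay above all normoxic arrays, with SV129 array 2 nearest to them, a separation seen in 6.53% of all probe sets. The mean was 11.99 ± 0.29 over 6 hypoxic arrays and 11.29 ± 0.12 over 3 normoxic arrays (SD), a change of 0.70 ± 0.186 that did not pass (limma adjusted p = 0.0726).

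That call depended on single arrays and on scaling. Without hypoxic SV129 array 2 the change was 0.83 and passed (limma adjusted p = 0.0199), and with each array centred on its median it was 0.79 and passed (adjusted p = 0.0447). Over the 7 kidney-free arrays it was 0.57 ± 0.242 (adjusted p = 0.301). The within-strain changes were 0.62 in BL6, 0.88 in FVB/N and 0.60 in SV129, with an unadjusted p of 0.798 for the difference between strains (limma adjusted p = 0.957).

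The second probe set of Ece1 (1455741_a_at), nearly as far up the range of all probe sets (93.8th against 95.6th percentile of mean level), did not share this pattern. It stood at 10.89 and 11.25 in hypoxic BL6 lungs against 11.40 in the normoxic one, at 11.86 and 11.55 in hypoxic FVB/N lungs against 11.26, and at 11.52 and 10.99 in hypoxic SV129 lungs against 11.48. The groups overlapped, and the change was −0.04 ± 0.193 (limma adjusted p = 0.930), or −0.19 ± 0.192 over the 7 kidney-free arrays (adjusted p = 0.684). The r between the 2 bright Ece1 probe sets over 9 arrays was −0.22. The Ece1 gene has 4 annotated starts, at 137862237, 137862280, 137913558 and 137920793 on chromosome 4, and which transcripts each probe set reads was not analysed here.

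**Figure D4:**
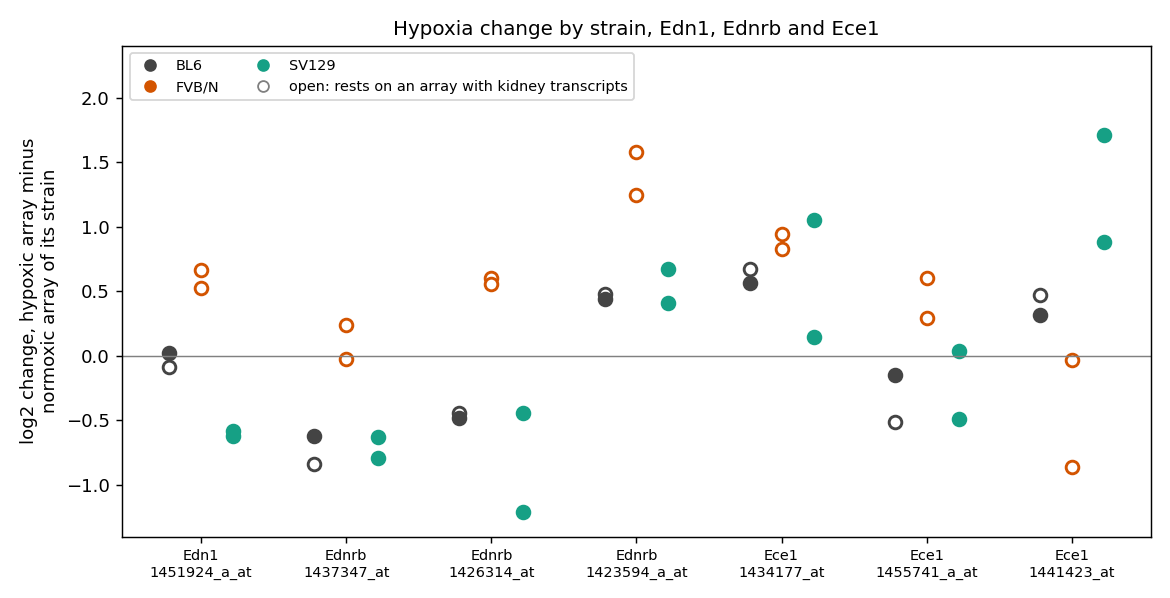
Log2 change (y axis) of each hypoxic array from the normoxic array of its strain, for the probe sets of Edn1, Ednrb and Ece1 (x axis), with open points resting on an array with kidney transcripts. For Edn1 both FVB/N points lie above 0 and both SV129 points below it, and for Ece1 1434177_at all 6 points lie above 0.

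The remaining probe set of Ece1 (1441423_at) was dim and differed between strains. It stood at 5.21 and 4.39 in hypoxic FVB/N lungs against 5.25 in the normoxic FVB/N lung, while BL6 ran from 6.73 to 7.20 and SV129 from 6.39 to 8.10. The 3 FVB/N arrays lay below the other 6, as held for 3.62% of all probe sets. BL6 against FVB/N gave 2.04 ± 0.413 (limma adjusted p = 0.0413) and FVB/N against SV129 gave −2.30 ± 0.413 (adjusted p = 0.0207). The FVB/N signals were 4.72 to 25.3, near the added 16, so the sizes depend on it. They were 2.95 and −3.23 with 1 added, and 1.14 and −1.36 with 64 added, where the first did not pass (adjusted p = 0.074). With 16 added they passed in 3 and 5 of 9 fits that left out 1 array. The first failed without any 1 array of BL6, without either hypoxic FVB/N array or without hypoxic SV129 array 2 (adjusted p up to 0.166), and the second without any 1 hypoxic array of FVB/N or SV129 (adjusted p up to 0.0693). Over the 7 kidney-free arrays they were 2.54 (adjusted p = 0.059) and −2.76 (adjusted p = 0.0182). On the 2 brighter Ece1 probe sets FVB/N against SV129 did not pass, at −0.00 ± 0.215 and 0.22 ± 0.223 (limma adjusted p = 0.997 and 0.660).

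Ece2 encodes a related converting enzyme. Its brighter probe set (1423358_at) stood at 8.13 and 8.09 in hypoxic BL6 lungs against 7.76 in the normoxic one, at 7.79 and 7.78 in hypoxic FVB/N lungs against 7.95, and at 7.84 and 7.32 in hypoxic SV129 lungs against 7.64. These values overlapped, with a change of 0.04 ± 0.184 (limma adjusted p = 0.911). RefSeq places Ece2 (chr16:20629851-20645915) inside a readthrough gene, Eef1akmt4-ece2, so signal of the 2 cannot be told apart. The other probe set was below the filter, with signals of 3.88 to 46.1 on hypoxic arrays and 11.8 to 37.0 on normoxic arrays.

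For strain as a whole, 2 of 12 member probe sets were called for BL6 against FVB/N (2.07% of all probe sets were, 1.52% higher in BL6), both higher in BL6. For BL6 against SV129 1 of 12 was called, lower in BL6 (2.51% of all, 1.16% lower), and for FVB/N against SV129 3 of 12, all lower in FVB/N (2.89% of all, 1.83% lower). All of these calls belonged to Edn3 and Ece1, as given above, and the match of their probes to each strain's sequence was not tested. By gene, read through the brightest probe set, 0, 1 and 1 of 5 were called in these comparisons. Of all genes read this way 2.18%, 2.29% and 2.89% were called. Unadjusted p-values below 0.05 numbered 5, 4 and 7 of 12 in these comparisons, where 11.9%, 15.9% and 16.3% of all probe sets had one. In the test of the difference in hypoxia change between strains 0 of 12 were called, and 3 of 12, for Edn1 and 2 probe sets of Ednrb, had an unadjusted p below 0.05 in limma, as did 12.3% of all probe sets. Within the strains, 1 of 12 had one for hypoxia in BL6 (12.5% of all), 4 of 12 in FVB/N (26.1%) and 4 of 12 in SV129 (7.58%).

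Other genes of the pathway were taken from 4 lists, read through each gene's brightest probe set. Of genes read this way 2.75% were called for hypoxia over the strains, and 2.18%, 2.29% and 2.89% for BL6 against FVB/N, BL6 against SV129 and FVB/N against SV129. Of 8 tested genes of endothelin processing and clearance, 1 rose (Mmp2, a gelatinase that can cut big endothelin-1), 0 fell and the median change was 0.03. Of 28 genes of receptor coupling and contraction 0 were called with a median of 0.15. The smallest p of these was that of Plcb1, a phospholipase C that acts downstream of Gq, at 0.92 ± 0.217 (limma adjusted p = 0.0531), and it passed over the 7 kidney-free arrays (1.27 ± 0.189, adjusted p = 0.0419) and without the normoxic FVB/N array alone (1.27, adjusted p = 0.0101). Of 18 regulators of Edn1 transcription 1 rose, the shear-induced factor gene Klf2, with a list median of −0.00. Mmp2 and Klf2 each passed in 2 of 9 fits that left out 1 array, those without hypoxic SV129 array 2 or 5, and neither passed over the 7 kidney-free arrays (0.50, limma adjusted p = 0.172, and 0.69, adjusted p = 0.177).

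Among 8 genes of receptor desensitization 2 rose in hypoxic lung and 0 fell, with a median of 0.03. Rgs4 encodes a protein that shortens Gq and Gi signalling. Its level was 9.41 and 9.62 in hypoxic BL6 lungs against 8.55 in the normoxic one, 10.88 and 10.63 in hypoxic FVB/N lungs against 9.29, and 11.04 and 11.12 in hypoxic SV129 lungs against 9.94. The rise of 1.19 ± 0.146, or 2.28-fold (limma adjusted p = 0.0125), held over the 7 kidney-free arrays (1.11 ± 0.170, adjusted p = 0.0424) and in 6 of 9 fits that left out 1 array. The 3 that did not pass left out hypoxic BL6 array 5, the normoxic BL6 array or the normoxic SV129 array (adjusted p = 0.0593, 0.0648 and 0.0837). Grk5, a kinase that marks active receptors for arrestin, rose by 0.65 ± 0.147 (limma adjusted p = 0.0471), but passed in 1 of 9 fits that left out 1 array, that without hypoxic SV129 array 2, and not over the 7 kidney-free arrays (0.59, adjusted p = 0.155).

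Rgs5, a regulator of the same family known from pericytes and 1 of the 8 pericyte markers used here, was lower in BL6 than in FVB/N by 1.33 log2 units, a difference of −1.33 ± 0.190 (limma adjusted p = 0.00712), and differed by −1.57 ± 0.190 from SV129 (adjusted p = 0.00338). The pericyte markers as a list did not share this. Of the 8, 5 lay above 0 for BL6 against FVB/N (median 0.08) and 2 for BL6 against SV129 (median −0.09), with 1 called in each, Rgs5 itself. Their part in the Rgs5 differences was not tested. Rgs4 differed by −1.07 ± 0.169 between BL6 and FVB/N (adjusted p = 0.0117) and by −1.50 ± 0.169 between BL6 and SV129 (adjusted p = 0.00238). Rgs2 differed by −1.37 ± 0.275 between BL6 and SV129 (adjusted p = 0.0359). In all, 2 of 8 desensitization genes were called for BL6 against FVB/N and 3 of 8 for BL6 against SV129, all lower in BL6. Rgs4 and Rgs5 passed in both comparisons over the 7 kidney-free arrays, and Rgs2 did not (−1.14, limma adjusted p = 0.0511). Rgs5 in both and Rgs4 against SV129 passed in 9 of 9 fits that left out 1 array. In a fit with the array number as a block, Rgs5 and Rgs4 against FVB/N did not pass (−1.26 and −1.10, limma adjusted p = 0.0942 and 0.139). Rgs4 against FVB/N failed without either hypoxic BL6 array or hypoxic FVB/N array 2 (adjusted p = 0.0589, 0.0767 and 0.0603), and Rgs2 passed in 3 of 9, failing without either hypoxic BL6 array, hypoxic FVB/N array 6 or any 1 SV129 array.

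Cacna1c, a pore subunit of the L-type calcium channel of smooth muscle, was lower in BL6 (−1.11 ± 0.213, limma adjusted p = 0.0299) and in FVB/N (−1.26 ± 0.213, adjusted p = 0.0153) than in SV129. Smooth muscle markers had 0 of 10 called in each of these comparisons, with 2 of 10 above 0 for BL6 against SV129 (median −0.23) and 0 of 10 for FVB/N against SV129 (median −0.51), where 1 of 8 pericyte markers lay above 0 (median −0.25). Their part in the Cacna1c differences was not tested. Cacna1c was the 1 of 28 coupling genes called in each of these comparisons, and passed in 2 of 9 and 6 of 9 fits that left out 1 array. The first passed only without hypoxic FVB/N array 2 or the normoxic FVB/N array, and the second failed without hypoxic FVB/N array 6, hypoxic SV129 array 2 or the normoxic SV129 array (adjusted p = 0.0603, 0.0521 and 0.106). Mme, which encodes neprilysin, a protease that can degrade endothelins, was lower in FVB/N than in SV129 (−0.93 ± 0.150, adjusted p = 0.0124), also in 8 of 9 fits that left out 1 array (0.0891 without the normoxic SV129 array). The Mme difference did not pass with the array number as a block (−1.02, limma adjusted p = 0.104) or on the 6 hypoxic arrays alone (−0.78, adjusted p = 0.0567). Fos, a subunit of AP-1, was lower than in SV129 in both BL6 (−2.92 ± 0.416, adjusted p = 0.00773) and FVB/N (−2.18 ± 0.416, adjusted p = 0.0262). Pparg, a nuclear receptor that represses Edn1 in endothelial cells, was lower in FVB/N than in SV129 (−0.93 ± 0.177, adjusted p = 0.0262), so that 1 of 18 regulators was called for BL6 against SV129 and 2 of 18 for FVB/N against SV129. The difference in Fos between BL6 and SV129 passed in 9 of 9 fits that left out 1 array. Its FVB/N difference passed in 5 of 9, failing without hypoxic BL6 array 5 or any 1 SV129 array, and that of Pparg in 1 of 9, without the normoxic BL6 array. The calls of Cacna1c (−1.04 and −1.04, adjusted p = 0.0428 and 0.0475), Mme (−0.76, adjusted p = 0.0407) and Fos (−2.96 and −2.55, adjusted p = 0.0142 and 0.0279) held over the 7 kidney-free arrays, and that of Pparg did not (−0.89, limma adjusted p = 0.100).

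Genes whose levels followed a member most closely over the arrays were ranked by the smaller of Pearson's r over 9 arrays and over the 7 arrays without kidney transcripts, among 12890 genes. These are descriptions over few arrays that share strain, pressure and tissue makeup. Il7r followed Edn1 most closely (r = 0.98 over 9 and 0.97 over 7 arrays), then Trpm2 and Prr36. Cacna1c followed Edn3 (0.98 and 0.98), then Arsj and 9430038I01Rik. Stxbp6 followed Ednrb (0.97 and 0.98), then Tcf7l2 and Arid4b, C87436 followed Ece1 (0.98 and 0.99), then Tsn and Psme3ip1, and Gemin7 followed Ece2 (0.98 and 0.97), then Selenom and Ccndbp1. Among the members themselves the closest pair was Edn3 with Ednrb, the ligand and its preferred receptor, at r = 0.77 over 9 and 0.68 over 7 arrays. The lowest r over 9 arrays was that of Edn3 with Ece2, at −0.61 (−0.45 over 7), and over 7 arrays that of Ednrb with Ece1, at −0.72 (−0.43 over 9). These values hold for the brightest probe sets only. Other probe sets of Ednrb and Ece1 had an r as low as 0.01 and −0.22 with the brightest ones.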

How the data were processed

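Total RNA of the right lung from 9 mouse samples was biotin-labelled for oligonucleotide arrays, per the labels' protocols. The authors deposited an intensity on a linear scale for every probe set, made with software that no source here names. With 2% of probe sets trimmed at each end, the mean intensity averaged 500 over the arrays. Scaling of the arrays to this value by the authors is inferred from that. No detection calls were used here, and the number of arrays limits the precision. Groups came from titles and descriptions, and 12 further arrays that the submitters call technically flawed were not analysed here.

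Signals were transformed to log2(signal + 16), so changes of dim probe sets are understated. They were quantile normalized because array medians spread by 0.228. After 64 controls were left out, the dimmest 40% of 45037 probe sets were left out, which left 27022. Of the 45037, 34945 had 1 symbol, 932 several and 9160 none. Additive models of strain and condition, and a model with 6 groups, used limma 3.58.1 under R 4.3.3 (intensity trend, Benjamini-Hochberg adjusted p, threshold 0.05), and were tested on simulated data. A gene was read through its brightest probe set, and the other probe sets of the members were given beside it. From each pathway list the rule named up to 4 called genes with the smallest p for hypoxia and up to 3 per strain comparison, or the gene with the smallest p where none was called. Members and lists were chosen with earlier results of these data known. The alternatives tried were other scalings, pseudocounts, filters and models, leaving out arrays, array number as a block, and a covariate for kidney marker level.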

Additional observations from a re-analysis of the deposited data

Results flagged for a closer look

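Over the 6 hypoxic arrays, Ednrb on its second probe set (1426314_at) had 1 array far from the others. Hypoxic SV129 array 5 stood at 8.64, while the other 5 lay between 9.29 and 9.41, so that the gap was 0.851 of the whole range. The 6 arrays come from 3 strains, and 26 probe sets were looked at in this way. The threshold for such a gap is one that about 1 in 20 groups of like samples pass by chance.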

How the results depend on the processing

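With 9 arrays and 1 normoxic array per strain, counts of called probe sets moved widely, and the causes were not tested. Of all probe sets, 1016 were called for hypoxia over the strains. This became 582 without the filter, 657 without the trend, 1871 with array weights, 228 without both arrays with kidney transcripts, 1957 with the kidney marker level as a covariate, 1606 as the mean of 3 strain effects and 183 with 1 probe set per gene, where fewer were tested. Under median centring 71.3% of calls were higher in hypoxic lung, against 51.7% here. Hypoxia in FVB/N gave 1087 calls without the filter and 1837 with it, and hypoxia in BL6 gave 0 calls without both arrays with kidney transcripts and 4 with them. For BL6 against FVB/N, 560 calls became 369 with the dimmest 60% left out, 2199 with weights, 323 without both arrays, 1041 with the covariate and 287 with 1 probe set per gene. For BL6 against SV129, 678 became 1291 with weights, 436 on the hypoxic arrays alone and 267 with 1 probe set per gene, and for FVB/N against SV129, 780 became 451 and 366 under these last 2. Leaving out 1 array gave 3 to 1390 calls for hypoxia, 251 to 748, 201 to 1227 and 321 to 771 for the 3 strain comparisons. Of the endothelin system probe sets, 0 called for hypoxia became 2 with median centring, 1 with the dimmest 60% left out, 2 with the covariate, 1 as the mean of 3 strain effects and 0 to 1 without single arrays. For BL6 against FVB/N, 2 became 1 with a pseudocount of 64, 1 without the filter, 0 with the dimmest 60% left out, 4 with weights, 1 without both arrays, 0 with 1 probe set per gene and 1 to 3 without single arrays. For BL6 against SV129, 1 became 0 under the authors' scaling, median centring, no filter, without both arrays and on the hypoxic arrays alone, and 0 to 2 without single arrays. For FVB/N against SV129, 3 became 1 with the dimmest 60% left out, 1 with 1 probe set per gene and 1 to 3 without single arrays. Without both arrays with kidney transcripts, chosen for the lists after the data had been seen, called list genes for hypoxia became 0 (processing), 1 (coupling), 1 (desensitization) and 0 (regulators). For BL6 against SV129 they became 2 (desensitization), and for FVB/N against SV129 2 (coupling) and 1 (regulators). No called change of a named gene or member turned its sign under the alternatives run.

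Array numbers 2 and 5 are shared by hypoxic BL6 and SV129, but the labels do not tie arrays of 1 number together. The differences between them correlated at −0.04 over 27022 probe sets. With the array number as a replicate block, 187, 299 and 181 probe sets were called for BL6 against FVB/N, BL6 against SV129 and FVB/N against SV129, and 0, 0 and 1 endothelin system probe sets. The hypoxic and normoxic groups share no array number, so no paired fit was possible there.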
